A study of Mus musculus with 4 samples.

Results

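Calcineurin is represented in these data by 8 genes: the catalytic subunits Ppp3ca, Ppp3cb and Ppp3cc, the regulatory subunit Ppp3r1, the regulators of calcineurin Rcan1, Rcan2 and Rcan3, and the calcineurin binding protein Cabin1. They were taken by gene symbol from the deposited table of 28193 genes, where all 8 have a row, and the rule uses symbols and no expression value. fosTRAP-seq was used to ask how the ribosome-bound RNA of CA1 neurons tagged during sleep deprivation (SD) differs after a second SD. The mice of both groups were male C57BL/6J aged 3 to 5 months and carried 2 viral vectors, AAV8-c-Fos-ERT2-Cre-ERT2, in which the c-Fos promoter drives a Cre that tamoxifen releases, and AAV9-EF1a-DIO-HA-mRpl22, in which Cre turns on HA-tagged Rpl22, a ribosomal protein that serves as the handle for the pull-down. All of them were sleep deprived for 5 h by gentle handling on day 0, when 4-OHT allowed Cre to act in neurons with an active c-Fos promoter. On day 7 the SD group was sleep deprived for 5 h again and the non-sleep deprived (NSD) group was left undisturbed, and tissue was taken at ZT 5. The labels name the source as dorsal hippocampus with the genotype cFos-Cre:Ribotag, whereas the study's methods describe vectors injected into CA1 of wild-type mice.

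Each library held the CA1 of 5 pooled mice, so the 10 mice of a group gave n = 2 libraries, and every standard deviation (s.d.) and p-value measures the spread between such pools. The tag marks neurons that were active on day 0, so the neurons active only on day 7 are not sampled, and the NSD group is not free of earlier SD. Batch 1 and batch 2 of the labels each hold 1 library of either group. Library totals ran from 153511705 to 195910235 estimated counts, and the rarest member, Ppp3cc, still had 1587 to 1870 counts in a library. Values are in CPM, the scale on which the count of a gene is divided by the TMM-scaled total of its library. The 7 markers read for CA1 pyramidal cells were Slc17a7, Camk2a, Neurod6, Wfs1, Fibcd1, Pou3f1 and Mpped1. Their summed level was 6258 to 6588 CPM in NSD and 6041 to 6504 CPM in SD. Whether this sum is particular to CA1 was not tested.

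Calcineurin is the serine/threonine phosphatase that calcium and calmodulin switch on. Its catalytic A subunit is held with a regulatory B subunit that binds calcium itself, and calmodulin binding lifts an autoinhibitory segment from the active site. In hippocampal neurons it is known for its part in long-term depression, in the trafficking of glutamate receptors, in synaptic vesicle endocytosis and in sending NFAT transcription factors to the nucleus. The RCAN proteins bind the A subunit and can inhibit it, and Cabin1 binds calcineurin and also represses MEF2 transcription factors.

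Rcan1 has 2 annotated starts in the RefSeq windows given here, and the downstream start is the one known as a transcriptional target of calcineurin and NFAT, which makes its promoter the sequence of most interest beside the Rcan1 values. The windows run from 250 bases before to 50 bases after a start, come from RefSeq on GRCm38.p6, and were placed on GRCm39, the build of the deposited table, by an exact match. They were searched on both strands for the NFAT core GGAAA, the cyclic AMP response element TGACGTCA and the AP-1 site TGANTCA. The downstream Rcan1 window lies at chr16:92196917-92197216 on the minus strand and the upstream window at chr16:92263008-92263307 on the same strand, with 66091 bases between the starts. In GENCODE M39, 8 Rcan1 transcripts start within 100 bases of the downstream start and 0 within 100 bases of the upstream start. The window of Rcan3, the member with the largest positive log2 fold change between the groups, lies at chr4:135161067-135161366 on the minus strand. Capitals mark GGAAA, which reads TTTCC from the opposite strand, and TGACGTCA.
Rcan1, downstream start: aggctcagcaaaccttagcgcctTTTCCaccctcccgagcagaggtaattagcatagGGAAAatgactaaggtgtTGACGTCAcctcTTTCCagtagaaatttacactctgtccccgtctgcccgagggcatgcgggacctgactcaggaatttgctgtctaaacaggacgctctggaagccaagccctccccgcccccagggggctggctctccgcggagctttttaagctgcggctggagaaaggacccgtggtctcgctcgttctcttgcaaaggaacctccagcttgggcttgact
Rcan1, upstream start: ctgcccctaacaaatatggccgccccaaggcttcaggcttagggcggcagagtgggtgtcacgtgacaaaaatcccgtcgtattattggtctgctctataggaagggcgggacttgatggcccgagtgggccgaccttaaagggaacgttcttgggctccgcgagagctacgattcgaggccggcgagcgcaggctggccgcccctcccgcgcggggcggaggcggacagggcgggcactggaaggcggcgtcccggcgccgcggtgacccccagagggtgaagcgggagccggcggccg
Rcan3: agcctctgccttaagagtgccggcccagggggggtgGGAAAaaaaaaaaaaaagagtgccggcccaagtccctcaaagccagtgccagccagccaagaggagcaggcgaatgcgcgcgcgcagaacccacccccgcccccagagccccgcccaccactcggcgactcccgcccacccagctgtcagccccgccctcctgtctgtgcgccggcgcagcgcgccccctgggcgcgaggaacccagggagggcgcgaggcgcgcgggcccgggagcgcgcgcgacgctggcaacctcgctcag
The downstream Rcan1 window held 3 copies of GGAAA, 1 TGACGTCA and 1 TGANTCA, and the upstream Rcan1 window held none of these letters. The Rcan3 window held 1 GGAAA and neither of the other motifs. Among the windows not printed, that of Ppp3cb held 4 GGAAA, more than the downstream Rcan1 window, the 3 of Rcan2 held 2, 0 and 0 GGAAA with 1 TGANTCA in the last, and those of Ppp3r1 and Cabin1 held none of the motifs. Among all 32851 RefSeq windows of this length, 61.3% held at least 1 GGAAA and 9.42% held 3 or more, 1.79% held TGACGTCA and 7.81% held TGANTCA, so a GGAAA alone is common. Windows were found for 6 of the 8 members, and Ppp3ca and Ppp3cc had none. A match is a string of letters and not a bound site. The deposited counts are per gene and merge both Rcan1 starts, so none of the values that follow belongs to 1 start alone.

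The difference between SD and NSD was tested with the quasi-likelihood test of edgeR on the 22338 genes whose count exceeded 5 in each of the libraries, and p-values were adjusted over all of these genes by the Benjamini-Hochberg method. A gene was called when its adjusted p was under 0.05 and its fold change over 1.2. All 8 members were tested and 0 were called, where 0.77% of all genes were called higher, 2.33% lower and 3.1% in either direction. Rcan2 and Rcan3 had an unadjusted p under 0.05, both of them higher in SD, where 19.1% of all genes did so in either direction and 6.86% on the higher side. DESeq2 and edgeR with the batch number as a block also called 0 of the 8, with 3 at an unadjusted p under 0.05 in each, where 19.5% of all genes had one by DESeq2 and 26.5% with the block. The share of all genes called was 8.79% by DESeq2 (2.99% higher, 5.79% lower) and 11.5% with the block (2.99% higher, 8.47% lower). The median log2 fold change of the members was -0.01, beside -0.02 over all genes tested and 0.02 over the protein-coding genes.

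**Figure D1:**
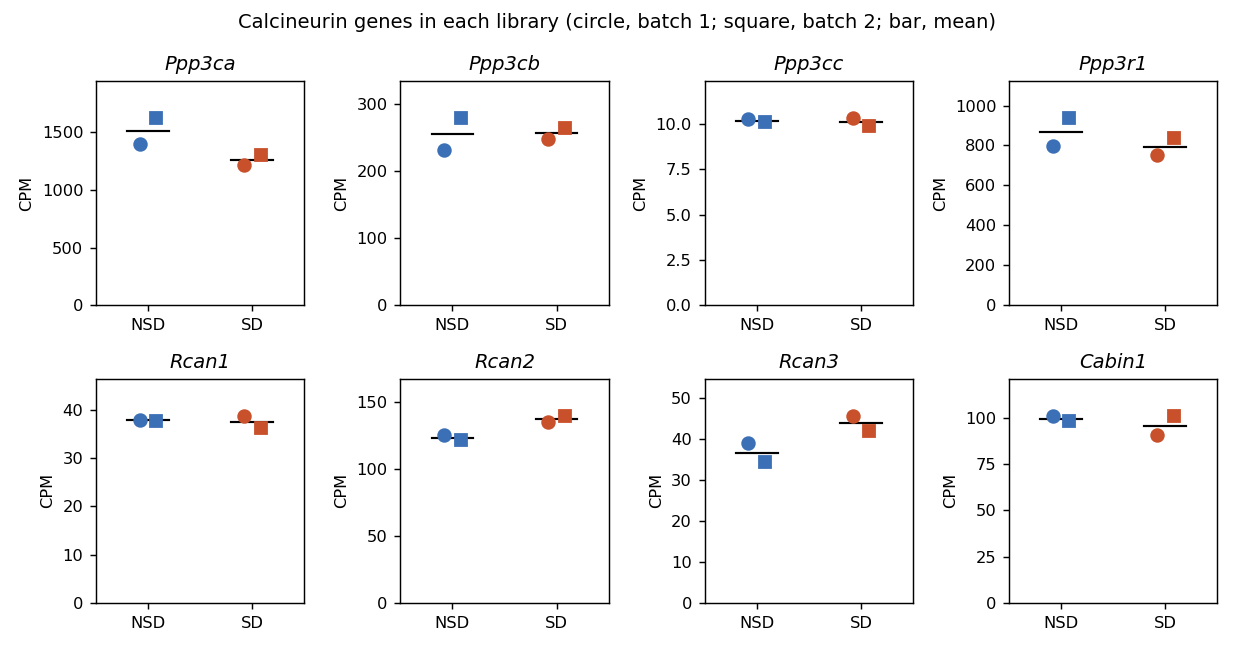
Level of each calcineurin gene in CPM (y axis, linear, from 0) in the NSD and SD libraries (x axis), with circles for batch 1, squares for batch 2 and a bar at the mean of 2 libraries. The SD points lie below the NSD points for Ppp3ca and above them for Rcan2 and Rcan3, and the groups overlap for the other 5 genes.

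Ppp3ca encodes calcineurin A alpha, the main catalytic subunit of forebrain neurons, and spans chr3:136375885-136643488 on the plus strand. Its level was 1398 CPM in NSD library 1, 1621 CPM in NSD library 2, 1219 CPM in SD library 1 and 1306 CPM in SD library 2. The SD values were both below the NSD values, as they were for 27.5% of all genes tested. The means were 1509 ± 158 CPM in NSD and 1262 ± 61.1 CPM in SD (s.d., n = 2), and the NSD libraries differed from each other by more than NSD library 1 differed from either SD library. The log2 fold change was -0.26 with a standard error of 0.11 and a 95% interval of -0.52 to 0.001, and the adjusted p was 0.264 by edgeR. Within batch 1 the log2 difference between SD and NSD was -0.20 and within batch 2 it was -0.31. With the batch as a block the log2 fold change was -0.25 with an adjusted p of 0.0514. Over the 11 fits made it ran from -0.33, with NSD library 1 left out, to -0.15, with NSD library 2 left out, and the adjusted p from 0.0514 to 0.70. Ppp3ca was therefore not called. Its sign was negative in all 11 fits and in both batches, but these reuse the same 4 libraries. With groups that do not overlap, such agreement is no separate support. In bulk libraries such as these, fewer tagged cells of a type and less RNA per cell cannot be told apart.

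The CA1 pyramidal markers were read beside Ppp3ca because their neurons are where it is best known. Set against their summed level, Ppp3ca stood at 22.3 and 24.6 CPM per 100 CPM of markers in the NSD libraries. In the SD libraries it stood at 20.2 and 20.1, and the groups did not overlap on this scale either. Of the 7 markers, 3 were lower in both SD libraries and 1 was higher in both, beside 27.5% and 22.0% of all genes tested. Endothelial markers were also lower in SD, at 37.0 to 51.3 CPM over 6 markers in NSD and 20.1 to 30.3 CPM in SD. Among them 5 of the 6 were lower in both SD libraries, beside 27.5% of all genes tested, and 0 were called by edgeR. Dentate granule markers ran from 84.8 to 92.9 CPM over 4 markers in NSD and from 68.6 to 76.4 CPM in SD, with 1 of the 4 lower in both SD libraries. The summed levels of interneuron (719 to 810 CPM), astrocyte (414 to 463 CPM), oligodendrocyte (1403 to 1694 CPM) and microglial markers (54.8 to 71.9 CPM) overlapped between the groups, and no marker of any list was at 0 in all libraries. The part of these marker levels in the calcineurin values was not tested.

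Ppp3cb encodes calcineurin A beta, the other catalytic subunit of brain and also that of lymphocytes, and lies on the minus strand at chr14:20549432-20596641. It stood at 230 and 278 CPM in NSD libraries 1 and 2 and at 247 and 264 CPM in SD libraries 1 and 2. The SD libraries fell between the NSD libraries, and the log2 fold change was 0.01 with a 95% interval of -0.22 to 0.24 (adjusted p = 0.977 by edgeR). The batches went in opposite directions, at 0.10 in batch 1 and -0.07 in batch 2.

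Ppp3cc encodes calcineurin A gamma, best known from testis, at chr14:70455314-70526920 on the minus strand. It was the rarest member, at 10.3 and 10.1 CPM in NSD and 10.3 and 9.89 CPM in SD. All 4 libraries were close to each other and the groups overlapped. The log2 fold change was -0.01 with an interval of -0.24 to 0.22 (adjusted p = 0.968). The interval does not reach a fold of 1.2 in either direction.

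Ppp3r1 encodes calcineurin B, the calcium-binding regulatory subunit, and lies at chr11:17109263-17150375 on the plus strand. It was measured at 798 and 936 CPM in NSD libraries 1 and 2, and at 750 and 835 CPM in SD libraries 1 and 2. SD library 2 lay above NSD library 1, so the groups overlapped, while SD was lower within each batch (log2 difference -0.09 in batch 1 and -0.16 in batch 2). The log2 fold change was -0.13 with a standard error of 0.11, an interval of -0.38 to 0.13 and an adjusted p of 0.613. Leaving out NSD library 2 brought it to -0.0097, and leaving out NSD library 1 to -0.21. For both Ppp3ca and Ppp3r1 the libraries of batch 2 were higher than those of batch 1 in the same group.

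The RCAN genes encode the regulators of calcineurin. Rcan1, at chr16:92188841-92267755 on the minus strand, is the member known to be induced by calcineurin signalling through its downstream start. Its level was 37.9 and 37.8 CPM in NSD libraries 1 and 2 and 38.7 and 36.2 CPM in SD libraries 1 and 2, so both NSD libraries lay between the SD libraries. The log2 fold change was -0.01 with a standard error of 0.07 and an interval of -0.17 to 0.15 (adjusted p = 0.948). A fold change of 1.2 in either direction lies outside this interval for the gene as a whole, and a shift between the starts printed above was not measurable.

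Rcan2, a family member of brain and muscle at chr17:44112242-44350407 on the plus strand, was measured at 126 and 122 CPM in the NSD libraries and at 136 and 140 CPM in the SD libraries. The SD values were both above the NSD values, which 22.0% of all genes also showed. The means were 124 ± 2.76 CPM in NSD and 138 ± 2.90 CPM in SD (s.d., n = 2). The log2 fold change was 0.16 with a standard error of 0.07 and an interval of 0.002 to 0.31. The adjusted p was 0.255, so Rcan2 was not called. Since the groups did not overlap, it was higher within both batches as well, by 0.11 and 0.20 on the log2 scale.

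Rcan3, at chr4:135139619-135161164 on the minus strand, had the largest positive log2 fold change of the 8 genes. It was measured at 38.9 and 34.5 CPM in NSD libraries 1 and 2, and at 45.6 and 42.0 CPM in SD libraries 1 and 2. The groups did not overlap, SD being the higher, with means of 36.7 ± 3.14 CPM in NSD and 43.8 ± 2.52 CPM in SD (s.d., n = 2). The log2 fold change was 0.26, a fold of 1.19, with a standard error of 0.08 and an interval of 0.07 to 0.45, and the adjusted p was 0.133. The batches gave log2 differences of 0.23 and 0.29. With the batch as a block the adjusted p was 0.0128 and the fold was still under 1.2. In that fit Rcan3 passed the p threshold and not the call, where 13.8% of all genes passed the p threshold. By DESeq2 its log2 fold change was 0.277 (adjusted p = 0.058), over the 0.263 of a 1.2 fold. With DESeq2 size factors in edgeR it was 0.277 too (adjusted p = 0.110), so the side of the fold threshold differed between fits. Over the 11 fits the adjusted p of Rcan3 ran from 0.0128 to 0.417, and its log2 fold change from 0.17 (NSD library 2 left out) to 0.38 (NSD library 1 left out).

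Cabin1, at chr10:75481946-75600175 on the minus strand, stood at 101 and 97.9 CPM in the NSD libraries and at 90.6 and 101 CPM in the SD libraries. The groups overlapped and the log2 fold change was -0.05 with an interval of -0.22 to 0.12 (adjusted p = 0.782). The batches differed in sign, at -0.15 and 0.04.

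**Figure D2:**
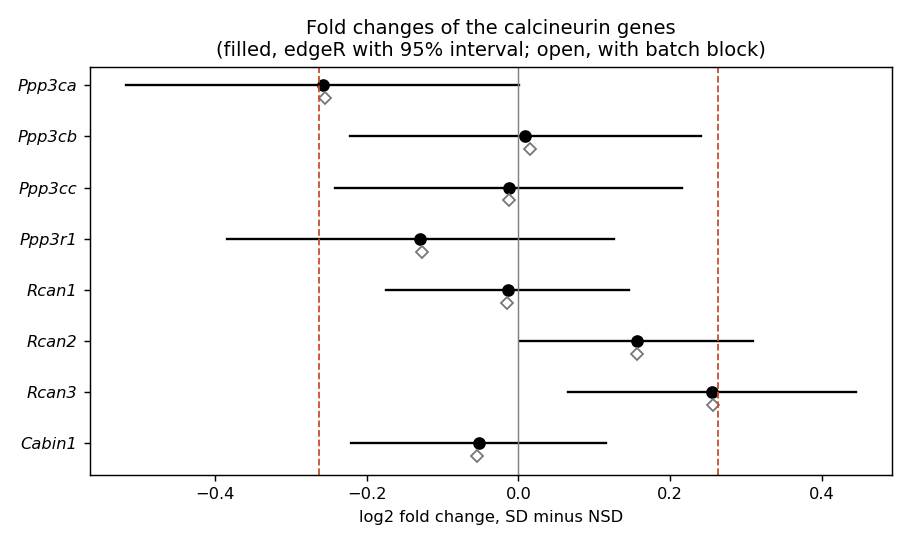
Log2 fold change of SD minus NSD (x axis) for the 8 calcineurin genes (y axis). Filled points with lines are edgeR estimates with 95% intervals, open diamonds are the estimates with the batch as a block, and dashed lines mark a fold change of 1.2. Ppp3ca at -0.26 and Rcan3 at 0.26 lie just inside the dashed lines and the other 6 genes are nearer to 0.

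In all, 2 of the 8 members had non-overlapping groups with SD higher, 1 had them with SD lower, and 5 overlapped, where 49.5% of all genes tested had groups that did not overlap. Levels of different genes were compared as CPM per kilobase of the Ensembl canonical transcript. On this scale the means over the 4 libraries were 283 for Ppp3r1, 281 for Ppp3ca, 52.2 for Ppp3cb, 39.4 for Rcan2, 17.2 for Rcan1, 13.1 for Cabin1, 7.85 for Rcan3 and 3.47 for Ppp3cc. The group means of Ppp3r1 and Ppp3ca lay within 1 s.d. of each other in NSD and about as far apart as the s.d. of Ppp3ca in SD, at 295 ± 33.1 against 306 ± 32.1 in NSD and at 270 ± 20.5 against 256 ± 12.4 in SD (s.d., n = 2). Within libraries Ppp3ca was the higher of the pair in both NSD libraries (284 against 272 and 329 against 319) and Ppp3r1 in both SD libraries (256 against 248 and 285 against 265). Every other pair of neighbours in this order had library ranges that did not overlap. The order depended on the length used, since the level of Ppp3ca was 124 per kilobase of all its annotated exon bases and that of Ppp3r1 was 244. On that scale Rcan2 (25.7) stood above Ppp3cb (25.4), and Rcan3 (7.55) above Cabin1 (7.20).

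Because calcineurin is a complex of A and B subunits that its regulators bind, the balance between members was also read within each library, where the total of the library cancels. Ppp3ca made up 84.9% and 84.5% of the summed catalytic subunit level per kilobase in NSD libraries 1 and 2, and 82.0% and 82.2% in SD libraries 1 and 2. The share was lower in both SD libraries, by 2.56 percentage points between the means, with differences of -2.81 points in batch 1 and -2.31 points in batch 2. Ppp3cb took up most of this difference, with 14.1% and 14.6% in NSD and 16.8% and 16.8% in SD, and the share of Ppp3cc was 1.05% and 0.886% in NSD and 1.17% and 1.05% in SD. The share of Ppp3cb did not overlap between the groups and that of Ppp3cc did. Ppp3r1 stood at 81.3% and 81.8% of the summed catalytic level in NSD and at 84.7% and 88.2% in SD.

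The summed level of Rcan1, Rcan2 and Rcan3 was 18.8% and 15.6% of the summed catalytic level in NSD, against 22.4% and 20.7% in SD. The groups did not overlap, and the log2 difference between the means was 0.33. Without NSD library 2 the difference was 0.20 and without NSD library 1 it was 0.47. Among the RCAN genes themselves Rcan2 held the largest share, at 60.4% and 60.5% in NSD and 60.7% and 63.0% in SD, and the share of Rcan1 was 27.5% and 28.4% in NSD and 26.1% and 24.7% in SD. Rcan3 held 12.1% and 11.1% in NSD and 13.2% and 12.3% in SD, so each RCAN share also had groups that did not overlap, the Rcan2 and Rcan3 gaps being small. The ratios are given as a description with no test, and the exact permutation test of 2 libraries against 2 could not give a two-sided p below 0.333.

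**Figure D3:**
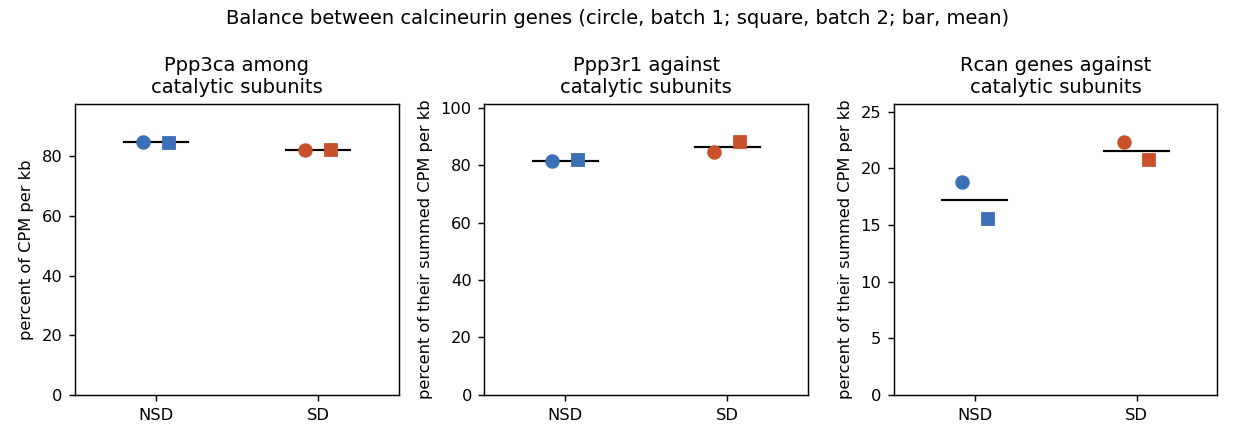
Balance between calcineurin genes in each library, from CPM per kilobase: Ppp3ca as a percent of the 3 catalytic subunits, Ppp3r1 and the summed RCAN genes as percents of the summed catalytic level (y axes, from 0), with circles for batch 1, squares for batch 2 and bars at the means. The Ppp3ca share is 82.0% and 82.2% in SD against 84.5% and 84.9% in NSD, and the RCAN percentage is 20.7% and 22.4% against 15.6% and 18.8%.

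The other genes of the pathway were read from a list of 33 genes: the NFAT factors, the calmodulins, paralogs of calcineurin B, the anchor Akap5 and the immunophilins that bind calcineurin drugs, protein phosphatase 1 with its inhibitors, the dephosphins of synaptic vesicle endocytosis, and other transcription regulators that calcineurin dephosphorylates. All 33 were tested and 0 were called by edgeR, with 2 at an unadjusted p under 0.05 (Ppp1r1a, lower in SD, and Epn1, higher in SD). Over all genes the same test called 3.1% and gave 19.1% an unadjusted p under 0.05. Their median log2 fold change was -0.02, with 15 above 0 and 18 below. The groups did not overlap with SD higher for 7 of them and with SD lower for 8, and they overlapped for 18, beside 22.0% of all genes with SD higher, 27.5% with SD lower and 49.5% in either direction. The fold changes ran from -1.12 for Ppp3r2, the B subunit of testis, to 0.23 for Ppp1r1b, the DARPP-32 gene, on the log2 scale. Ppp3r2 was scarcely detected, at 0.609 and 0.363 CPM in NSD and 0.349 and 0.100 CPM in SD, and its log2 fold change was -2.26 without SD library 1 (adjusted p = 0.0123).

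Ppp1r1a encodes inhibitor-1, a substrate of calcineurin that inhibits protein phosphatase 1 when it is phosphorylated. It was measured at 32.8 and 31.2 CPM in the NSD libraries and at 25.6 and 26.6 CPM in the SD libraries. The SD values were both below the NSD values, with a log2 fold change of -0.29, a standard error of 0.07 and an adjusted p of 0.072 by edgeR. With the batch as a block the adjusted p was 0.0115 at the same log2 fold change and the gene was called, as it was by DESeq2 (log2 fold change -0.27, adjusted p = 0.0386). Its adjusted p over the 11 fits ran from 0.0115 to 0.237. The catalytic subunit Ppp1ca, which the inhibitor acts on, stood at 56.8 and 63.6 CPM in NSD and at 64.7 and 65.9 CPM in SD (log2 fold change 0.12, adjusted p = 0.467, and 0.067 with NSD library 1 left out or 0.20 with NSD library 2 left out).

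In the other roles the gene with the highest level per kilobase did not pass the test. Among the NFAT factors, which carry the calcineurin signal to the nucleus, this was Nfatc3, at 26.2 and 23.6 CPM in NSD and 27.2 and 25.2 CPM in SD (log2 fold change 0.07, adjusted p = 0.739). The 4 NFAT genes had a median log2 fold change of -0.15 and a range of -0.19 to 0.07. Of the genes for calmodulin, the calcium sensor that switches calcineurin on, Calm3 was highest, at 1662 and 1752 CPM in NSD and 1739 and 1777 CPM in SD (log2 fold change 0.04, adjusted p = 0.886, and 0.081 with NSD library 2 left out or 0.022 among protein-coding genes only). Per kilobase Calm3 had a mean of 720 and Nfatc3 of 4.18, beside 281 for Ppp3ca.

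Chp1, a calcineurin B homologous protein, stood at 138 and 141 CPM in NSD and at 155 and 154 CPM in SD, above NSD in both SD libraries (log2 fold change 0.15, adjusted p = 0.288). Fkbp1a, the FKBP12 gene whose protein carries the drug FK506 to calcineurin, was at 376 and 434 CPM in NSD and at 358 and 383 CPM in SD, and the groups overlapped (log2 fold change -0.13, adjusted p = 0.543, and -0.022 with NSD library 2 left out or -0.20 with NSD library 1 left out). Dnm1, which encodes the dynamin that calcineurin dephosphorylates in nerve terminals, was at 873 and 908 CPM in NSD and at 835 and 941 CPM in SD, so both NSD libraries lay between the SD libraries (log2 fold change -0.005, adjusted p = 0.989). Mef2d, a transcription factor that calcineurin dephosphorylates and Cabin1 binds, was above NSD in both SD libraries, at 346 and 354 CPM in NSD and 364 and 382 CPM in SD (log2 fold change 0.09, adjusted p = 0.621).

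**Figure D4:**
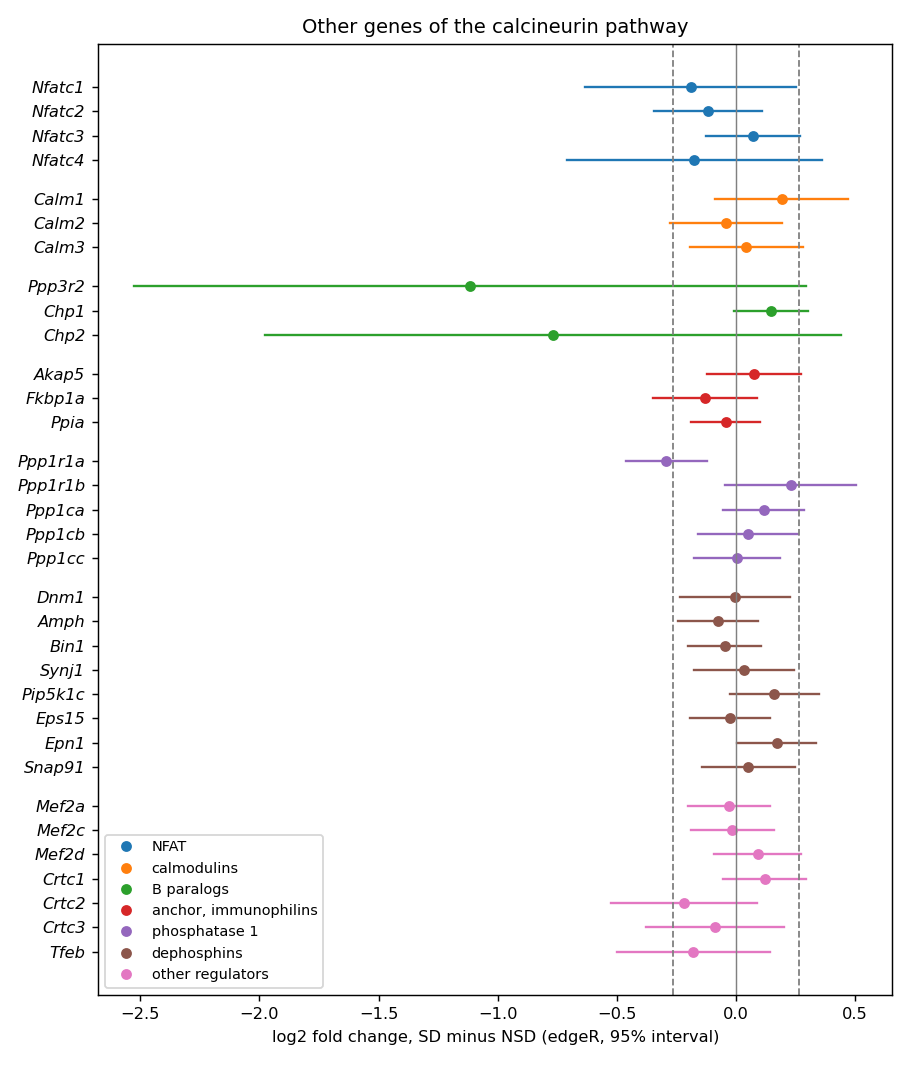
Log2 fold change of SD minus NSD with its 95% interval by edgeR (x axis) for the 33 other pathway genes (y axis), coloured by role, with dashed lines at a fold change of 1.2. Ppp1r1a at -0.29, the rarely detected Ppp3r2 at -1.12 and Chp2 at -0.77 lie beyond the dashed lines, and 0 genes were called.

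The pattern over the 4 libraries was compared between Ppp3ca or Rcan1 and the 40 other members and pathway genes, as the root mean square difference of log2 CPM after each gene was centred on its own mean. The genes nearest to Ppp3ca were Fkbp1a (0.0641), Nfatc4 (0.0658) and Ppp3r1 (0.0671), all highest in NSD library 2. Those nearest to Rcan1 were Ppp3cc (0.0138), Eps15 (0.0474) and Ppia (0.0479), which varied little between libraries. With 4 libraries that share depth and scaling this is a description of likeness only.

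Ppp3ca holds 2 small loci inside its introns that passed the count filter, and neither shares a base with an annotated Ppp3ca exon. Both are of the Ensembl class TEC, transcripts that still need experimental evidence. Gm42822 lies on the same strand at chr3:136406972-136408500, 31087 bases from the start of Ppp3ca. It had 481 and 355 counts in NSD and 115 and 69 counts in SD, or 2.90 and 2.26 CPM against 0.636 and 0.365 CPM. The SD counts were all lower than the NSD counts, and Gm42822 fell by 2.37 on the log2 scale with a standard error of 0.33 (adjusted p = 0.0328 by edgeR). The batches gave log2 differences of -2.17 and -2.59. The call was lost when genes were filtered by filterByExpr, where the adjusted p was 0.0628 with a log2 fold change of -2.36. Over the 10 fits that included it the adjusted p ran from 1.92e-10 to 0.0628.

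4930599N24Rik lies on the opposite strand at chr3:136464719-136465721, 88834 bases from the start of Ppp3ca. It had 115 and 72 counts in NSD and 28 and 33 counts in SD. The SD counts were again all lower, with a log2 fold change of -1.80, a standard error of 0.45 and an adjusted p of 0.0712, so it was not called. With the batch as a block the log2 fold change was -1.77 and the adjusted p 0.0215, by DESeq2 -1.79 and 0.0237, and the adjusted p over the 10 fits that included it ran from 0.0215 to 0.324. For every 100000 counts of Ppp3ca, Gm42822 had 208 and 139 counts in NSD and 52.2 and 27.9 in SD, and 4930599N24Rik had 49.6 and 28.3 in NSD and 12.7 and 13.4 in SD. Per count of the gene that holds them, both loci were lower in each SD library. Of the 1663 TEC genes tested anywhere in the genome, 18.5% were called lower in SD, and the median log2 fold change of that class was -1.51.

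**Figure D5:**
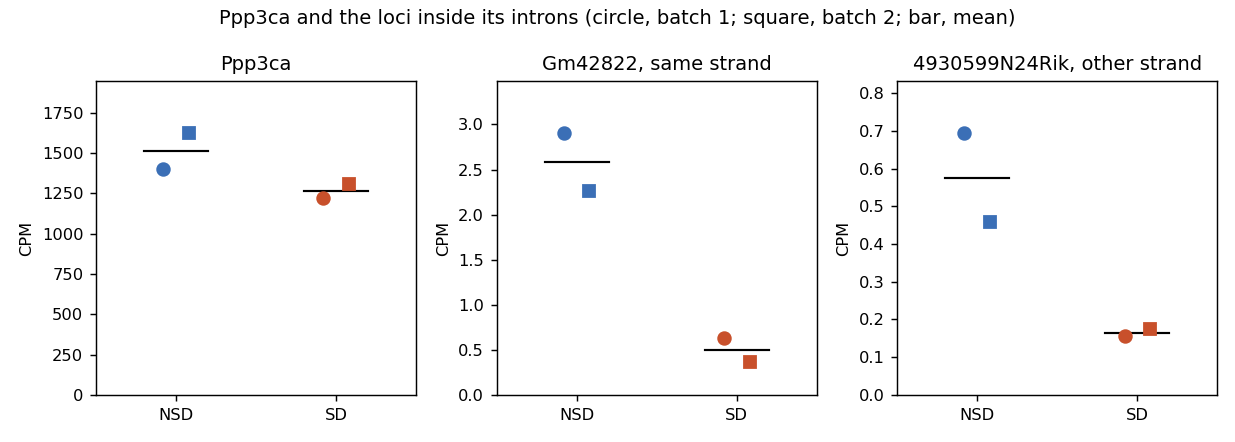
Level in CPM (y axes, linear, from 0) of Ppp3ca and of the 2 loci inside its introns in the NSD and SD libraries (x axis), with circles for batch 1, squares for batch 2 and bars at the means. Gm42822 is at 2.26 and 2.90 CPM in NSD and 0.365 and 0.636 CPM in SD, while Ppp3ca itself is at 1398 and 1621 CPM in NSD and 1219 and 1306 CPM in SD.

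Other annotated genes overlap members without lying inside them. On the opposite strand of Ppp3cc, Gm49417 had a count equal to 3.69% of that of Ppp3cc and overlapped between the groups, and opposite Ppp3cb, 1810062O18Rik had 0.135% of its count. 1810062O18Rik stood at 0.462 and 0.470 CPM in NSD and at 0.263 and 0.214 CPM in SD, with no overlap between the groups (log2 fold change -0.97, adjusted p = 0.262 by edgeR), and was not called. Wdr92, on the strand of Ppp3r1, had 0.421% of the Ppp3r1 count. Its span covers 3046 bases of Ppp3r1 exons. That of Gm49417 covers 3305 bases of Ppp3cc exons, and that of 1810062O18Rik 225 bases of Ppp3cb exons. Strand cannot assign the reads where Wdr92 and Ppp3r1 overlap. The library kit keeps the strand, but whether the counting used it is not given in the sources used here, so reads of pairs on opposite strands cannot be told apart here.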

How the data were processed

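The authors aligned 150-base paired-end reads with STAR 2.7.8a, counted them with the Partek E/M model against Ensembl release 110 on GRCm39 and deposited the estimated counts unnormalized. The estimated counts were rounded here, since 55.6% of genes have a value that is not whole. Genes with more than 5 counts in each library were kept, and edgeR 4.0.16 in R 4.3.3 fitted condition alone with TMM scaling. CPM were computed from the estimated counts before rounding, with the TMM-scaled totals of that fit. Single-library log2 values used a prior count of 2. The labels' batch numbers equal the replicate numbers. What a batch shared is not given in the sources used here, and the study's methods describe no pairing of pools. The fit with a replicate block was therefore kept as an alternative. As a check, libraries with the same number deviated together from the group means (r = 0.178 over 22338 genes). Alternatives were that block, DESeq2 1.42.0, its size factors, other gene filters, protein-coding genes only and each library left out. Lengths and exons came from GENCODE M39, a later release on the same build, which matched 27962 of 28193 gene IDs. Of the matched genes 53.6% had the same start and 53.4% the same end as in the deposited table. The lengths therefore often come from gene models that differ from those counted. Spans of loci were those of the deposited table. Named genes were every member, pathway genes called with or without the block, the highest gene of each role, the 3 genes most like Ppp3ca or Rcan1, and tested loci inside members. Genes with an unadjusted p under 0.05, the ends of the range, Chp2 and overlapping genes were named after their values were seen. The members and lists were chosen with earlier results of these data known. The fits were tested on simulated data.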

Additional observations from a re-analysis of the deposited data

How the results depend on the processing

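The calls over all genes moved most with the processing. Against 172 genes higher and 520 lower in SD by edgeR (24.9% of the calls higher), the replicate block, which pairs the libraries by batch, gave 668 and 1891, and DESeq2 gave 669 and 1294 (34.1% higher). Without a count filter 50 and 80 genes were called (38.5% higher), among protein-coding genes only 51 and 39 (56.7% higher), and with filterByExpr 1 and 0, where 1594 and 2816 genes had an unadjusted p under 0.05 by edgeR. Leaving out each library gave 144 to 321 higher and 87 to 1953 lower, the lowest count of lower calls without NSD 1 (87) and the highest without SD 1 (1953), and without SD 2 it was 791. The count of higher calls was 291 without SD 1 and 321 without SD 2. None of the 8 members was called in any of the 11 fits, and 0 to 3 of them had an unadjusted p under 0.05. Of the pathway genes, 1 was called lower with the block and 1 by DESeq2 (Ppp1r1a in both) and 0 to 1 with a library left out (Ppp3r2 without SD 1, at -2.26 on the log2 scale). The block changed no other call among the members and pathway genes. It added 4930599N24Rik among the loci.

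Ppp3ca, Ppp3r1, Rcan2 and Rcan3 kept their sign in all 11 fits, though Ppp3r1 ran from -0.21 to -0.0097, the latter without NSD 2. The other members did not. On the log2 scale Ppp3cb was -0.010 among protein-coding genes only and -0.090 to 0.15 with a library left out. Ppp3cc was 0.0095 by DESeq2, 0.0095 with its size factors, 0.015 without a count filter and -0.041 to 0.036 with a library left out. Rcan1 was 0.0082, 0.0082 and 0.014 under these settings and -0.060 to 0.050 with a library left out, and Cabin1 -0.11 to 0.024. Dnm1 was 0.018, 0.018 and 0.024 under the same settings, 0.0015 with filterByExpr and -0.076 to 0.081 with a library left out. Nfatc3 was -0.0015 to 0.18 with a library left out, and Eps15 -0.020 to 1.03e-05, and 0.0045 without a count filter. The cause of these changes was not tested. The Ppp3ca share differed by -2.75 points with all exon bases as the length, an alternative chosen after seeing the data, and by -2.74 to -2.39 points with a library left out.

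With a library left out, 1 library stands for a group and is assumed to vary like the other group. There are 2 pools per group, and Ppp3r2 and the loci inside Ppp3ca rest on few counts. Gene counts merge isoforms and starts.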
